A study of Mus musculus with 8 samples.

Results

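The most open promoters of wild-type pachytene spermatocytes, the male germ cells in the long prophase of meiosis, are described here as a set of 607 ATAC-seq peaks. ATAC-seq uses a transposase that cuts open DNA, and a peak is a stretch in which its cuts pile up above the background of the library. The set was drawn from 6066 peaks on chromosomes 1 to 19 whose midpoint lay between 1000 bp upstream and 100 bp downstream of a protein-coding transcription start, with no protein-coding start on the opposite strand within 1000 bp. These are called one-way promoters below. A further 955 of the 7021 autosomal peaks at protein-coding starts were left out because they faced an opposite start. The 607 members were chosen by their −log10 q, the score that the peak caller gives a peak against its background, as the top decile (10%) of the *Arid1a* WT list. A decile is a bin that holds 10% of the ranked promoters. Every WT height and score below is therefore a description of the choice.

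The study made 4 ATAC-seq libraries from *Arid1a* WT and 4 from *Arid1a* cKO pachytene spermatocytes and deposited 1 list of peaks for each genotype. The WT males were *Arid1a* fl/fl or *Arid1a* fl/+ without Cre. The cKO males were *Arid1a* fl/fl; *Stra8-Cre* Tg/0, so the gene for ARID1A, a subunit of the BAF chromatin remodeling complex, was deleted by a Cre expressed from the spermatogonial stage on. Floxed alleles were on a CD1 background, the labels name no treatment, and cells were enriched from the pooled testes of adult males by sedimentation. Both groups carried floxed *Arid1a*, and some cKO cells kept ARID1A by the study's own account, which limits the cKO list as a model of complete loss. Heights in a list came from a single library of that genotype, so the spread between replicates is unknown for every value. The interval of a single promoter's ratio covers counting error only. Intervals of shares and medians take promoters as units unless stated, and none covers differences between libraries.

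The WT list held 19309 peaks and the cKO list 30244. Among 11 marker genes of pachytene spermatocytes, 6 had a promoter peak in WT and 6 in cKO, of which 4 were shared, *Sycp2*, *Piwil1* and *Mybl1* among them, and *Sycp2* was a member. The markers *Sycp3*, *Hspa2* and *Ldhc* had none in either list. A promoter peak is counted by its midpoint, as above, so a peak centred farther into the gene is not counted. No marker of spermatids (0 of 5) or of spermatogonia (0 of 6) had a WT promoter peak, against 2 and 1 in cKO. Of 15 markers of testis somatic cells, 3 had a promoter peak in each list, but only *Star* did in both. The WT peaks were at *Gata4*, *Amh* and *Star*, with a fold enrichment of 3.19 to 3.75, and none was a member. The cKO peaks were at *Wt1*, *Cldn11* and *Star*. The promoter of *Arid1a* was not a member, with a fold enrichment of 5.82 in WT and 16.2 in cKO. It lies outside the deleted part of the gene and does not check the deletion.

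A promoter is the stretch of DNA around a transcription start at which general factors and RNA polymerase II assemble, and in many housekeeping genes it is rich in CpG and lacks a TATA box. Such promoters often carry GC boxes, bound by SP1 and its relatives, and CCAAT boxes, bound by NF-Y, a trimer whose histone-like subunits let it bind DNA in a nucleosome-like way. CCAAT boxes usually sit a short distance upstream of the start and can point either way.

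The upstream sequences of 6 of the strongest members show the elements that recurred in the set. Each is the 120 bases before the start in the direction of the gene, read from the mm10 (GRCm38) reference sequence. Capitals mark CCAAT or its reverse complement ATTGG, the GC box GGGCGG or CCGCCC, the NRF1 core GCGCATGC or GCATGCGC, and TATAAA. *Sp1* lies on the plus strand at chr15:102406023-102406142, *Mtmr4* on the plus strand at chr11:87592042-87592161, and *Tomm40* on the minus strand at chr7:19715439-19715558. These 3 combine both elements, with a CCAAT box that begins 57 bases before the start in *Sp1*, 55 and 23 in *Mtmr4*, and 92 and 39 in *Tomm40*. *Cic* (plus strand, chr7:25267584-25267703) carries 1 of each within this stretch. *Stip1* (minus strand, chr19:7039968-7040087) and *Smarca5* (minus strand, chr8:80739498-80739617) are shown as contrasts without CCAAT here, the first with a TATAAA that begins 89 bases before the start and the second with an NRF1 core at 83 bases.
Sp1: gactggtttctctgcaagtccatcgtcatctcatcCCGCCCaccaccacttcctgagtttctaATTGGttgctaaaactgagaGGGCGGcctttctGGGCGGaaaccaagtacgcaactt
Mtmr4: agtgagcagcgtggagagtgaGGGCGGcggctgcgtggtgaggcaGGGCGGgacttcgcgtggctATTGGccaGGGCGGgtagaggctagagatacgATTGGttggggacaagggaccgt
Tomm40: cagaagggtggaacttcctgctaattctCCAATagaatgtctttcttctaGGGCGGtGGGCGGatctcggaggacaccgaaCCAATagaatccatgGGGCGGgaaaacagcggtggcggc
Cic: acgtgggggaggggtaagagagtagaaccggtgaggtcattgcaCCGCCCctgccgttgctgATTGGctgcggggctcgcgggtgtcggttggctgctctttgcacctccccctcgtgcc
Stip1: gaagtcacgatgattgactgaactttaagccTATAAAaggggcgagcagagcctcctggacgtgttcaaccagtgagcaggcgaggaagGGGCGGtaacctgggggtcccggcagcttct
Smarca5: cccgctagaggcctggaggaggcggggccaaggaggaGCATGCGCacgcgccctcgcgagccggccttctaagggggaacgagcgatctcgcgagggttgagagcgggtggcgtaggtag

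The strongest WT promoter peak lay at *Sap130*, which encodes a subunit of the SIN3 histone deacetylase complex. Its fold enrichment, the pileup of fragments at the summit over the library background with 1 added to each, was 34.3 in WT and 50.7 in cKO. *Smarca5*, the ATPase of the ISWI chromatin remodelers, followed with 33.0 in WT, and its cKO peak was the highest of any WT one-way promoter at 54.2. *Sp1*, whose product binds the GC box, was at 30.6 in WT and 42.7 in cKO. The next members by WT score were *Mtmr4*, a phosphoinositide phosphatase, with 28.5 in WT and 48.3 in cKO, and *Tomm40*, the channel through which proteins enter mitochondria, with 28.5 and 47.3. *Stip1*, a co-chaperone of HSP70 and HSP90, had 28.0 in WT and 44.5 in cKO, and *Cic*, a transcriptional repressor, had 27.6 and 45.7. The first 7 members named genes of chromatin, transcription, lipid signalling, mitochondrial import and protein folding, none of them particular to germ cells by common knowledge.

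The other 18 of the 25 strongest members ranged from a WT fold enrichment of 25.7 to 27.4. They included *Eif5a*, a translation factor (27.4 in WT and 44.5 in cKO), *Rps6ka5*, a kinase of histone H3 (27.2 and 37.5), and *Ap2a1*, a subunit of the clathrin adaptor (27.2 and 42.1). *Agpat1*, an acyltransferase of phospholipid synthesis, had 27.2 in WT and 42.4 in cKO. *Mxd1*, a repressor that pairs with MAX, had 27.0 in WT and 49.3 in cKO, the third highest cKO value of the WT one-way promoters. *Tbl2* was at 27.0 and 38.0, *Uqcrq*, a subunit of respiratory complex III, at 26.6 and 35.8, and *Rnf44* at 26.6 and 43.0. *Camta1*, *Slc25a28*, *Ankrd54* and *Prdm10* lay between 25.9 and 26.5 in WT and between 32.6 and 41.2 in cKO. The rest of the 25 shared a WT value of 25.7. Among them, *Hmgcs1*, which makes the precursor of mevalonate, had a cKO value of 38.8, and *Setd5*, a SET-domain protein of chromatin, had 42.5. *Ensa*, an inhibitor of the phosphatase PP2A, had 39.3 in cKO, *Rap2a*, a small GTPase, 39.9, *Zmym2* 34.9, and *Fgfr1op*, a centrosomal protein, 38.3. At *Fgfr1op* only 32.7% of the 50-base stretches sampled in the peak occurred once in the genome. The share was also under 50% at *Gm20878* and *Gm21953*, with 0% each, and at *Rnaset2a*, with 43.8%.

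Over the 607 members, WT fold enrichment ranged from 15.8 to 34.3 with a median of 18.2 (95% order-statistic interval, 17.8 to 18.4), and the median over all one-way promoters was 8.25. The members' summits held 83 to 182 fragments, with a median of 96 against 43 over all one-way promoters. The lower limit fell inside a run of equal values. Of 40 one-way promoters with the limiting −log10 q of 71.2, 31 were taken in the order of the list, and *Chfr*, *Cnot4* and *Ezh2* just inside had the same fold enrichment of 15.8 as *Chmp2a*, *Mypop* and *Sipa1l3* just outside. The members named 605 genes, because *Rnf44* and *Ing1* each had 2 member peaks at separate starts. They stood on the plus strand in 303 cases. Each member recurred on at least 3 rows of the list, where a row is an overlap with a peak of another WT replicate, and 91.5% of all one-way promoters did so.

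The members were wide peaks around the start. Their median WT width was 1691 bp (1658 to 1746) beside 1017 bp over all one-way promoters, and 603 of 607 peaks (99.3%) spanned the start itself, as did 93.8% of all one-way promoters. From the start, the median peak reached 959 bp upstream and 718 bp downstream, and over all one-way promoters 595 and 432 bp. The choice of midpoints from 1000 bp upstream to 100 bp downstream favours this upstream lean in both sets, and also in the cKO peaks, which were matched to the WT peaks by overlap. The narrowest member was *Chfr*, a mitotic checkpoint ubiquitin ligase, at 624 bp, and the widest was *Rassf1*, a tumour suppressor, at 9842 bp. *Atp6v0b*, a subunit of the proton pump of acidic organelles, was nearly as wide at 9780 bp, and *Actb*, cytoplasmic actin, spanned 5844 bp. Width was measured on the peaks that the score had selected and is not independent of it.

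**Figure D1:**
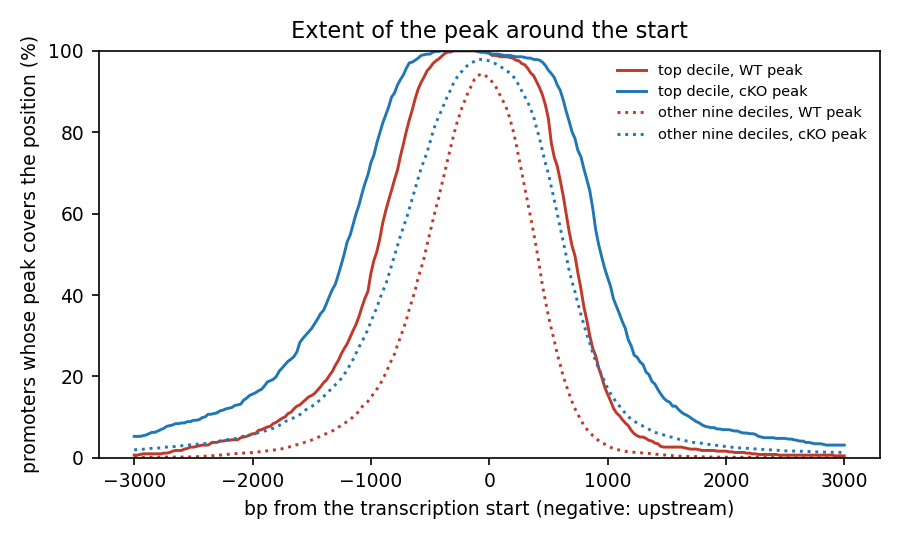
Share of promoters (y axis, percent) whose peak covers a position (x axis, bp from the transcription start, negative upstream) for the top decile (solid lines) and the remaining one-way promoters (dotted lines), with WT in red and cKO in blue. At 1000 bp upstream the WT peak covered 45.3% of members and 14.8% of the remainder, and at 1000 bp downstream 15.7% and 2.91%.

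Every member had a peak in the cKO list. All 607 (Wilson 95% interval, 99.4 to 100%) overlapped a cKO peak, each over at least 50% of its length, beside 6012 of 6066 one-way promoters (99.1%, 98.8 to 99.3%). The members' cKO fold enrichment ranged from 17.8 to 54.2 with a median of 29.3, and the median over all one-way promoters was 13.3. The cKO value was above the WT value at all 607 members and at 5869 of the 6012 one-way promoters with a cKO peak.

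The ratio of cKO to WT fold enrichment had a median of 1.58 over members (1.56 to 1.60) and 1.56 over all one-way promoters (1.55 to 1.57). Background coverage was 5.11 fragments per base for cKO and 4.33 for WT, and a difference between 2 libraries and a difference between genotypes cannot be told apart. The ratio was at least 1.5 at 407 members (67.1%), and at 57.9% of all one-way promoters with a cKO peak. The WT value was at least 1.5 times the cKO value at 0 members and at 0% of all one-way promoters. Across deciles of the WT ranking the median ratio was 1.58 in the first, highest in the third at 1.61, 1.57 in the fifth and 1.42 in the last. The middle of the members' ratios lay between 1.46 and 1.70 (first and last quartile), and the SD of the log2 ratio was 0.161 over members and 0.309 over all one-way promoters. In the scatter of both lists the members form the upper end of 1 band. The WT value both chose the members and is the denominator of the ratio.

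**Figure D2:**
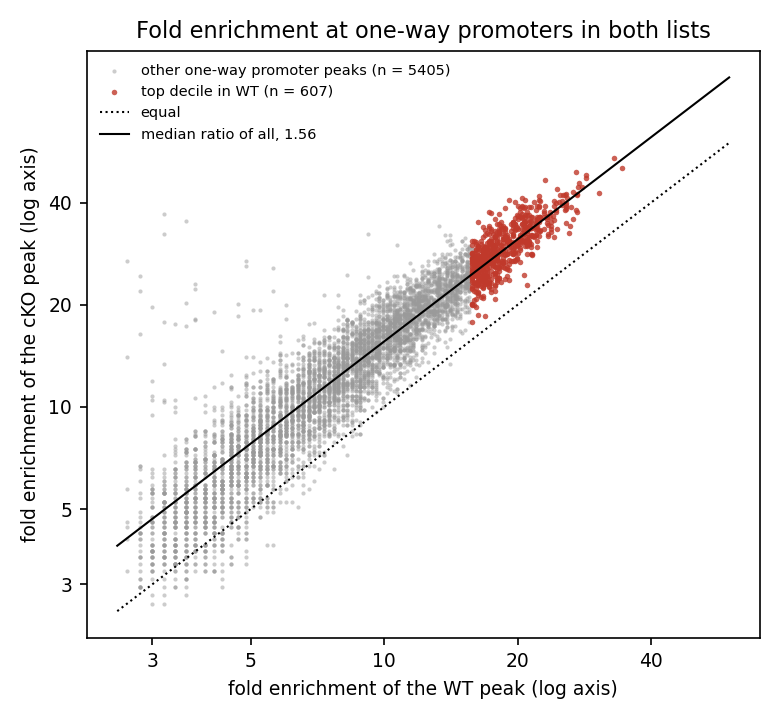
Fold enrichment of each one-way promoter in the WT list (x axis) and of its cKO peak (y axis), both on log axes, with members in red, other one-way promoters in grey, equality dotted and the median ratio of 1.56 as a solid line. All 607 members lie above the dotted line, with ratios between 1.09 and 2.18.

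Few members had a counting interval that left out the common ratio. The counting interval of a member's ratio was wide, with a median distance from the estimate to its bound of 26.2% of the ratio. It lay wholly above the overall median of 1.56 at 11 members (1.81%), beside 2.35% of all one-way promoters with a cKO peak. It lay wholly below at 6 members (0.988%), beside 1.08%. A 95% interval leaves out the true value at some promoters by counting alone. The genes named below are therefore the extremes of the set and are not shown to depart from the common ratio. The 6 at the low end were *Piwil2*, *Wtap*, *Chfr*, *Hdac2*, *Eif3d* and *Dnajb9*. *Piwil2*, a PIWI protein of the piRNA pathway that silences transposons in germ cells, had 111 fragments at its summit in WT and 139 in cKO, a fold enrichment of 21 and 22.9, and the lowest ratio of 1.09 (0.845 to 1.41). *Wtap*, a subunit of the m6A RNA methyltransferase, had 16.9 in WT and 18.5 in cKO and a ratio of 1.10. *Hdac2*, a histone deacetylase, had 16.3 and 18.7, and *Eif3d*, a translation initiation factor subunit, had 17.8 and 20.8. *Dnajb9*, a co-chaperone of the endoplasmic reticulum, had 20.6 in WT and 24.5 in cKO.

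Among those at the high end, *Pip4k2b*, a lipid kinase, had 16.3 in WT and 35.0 in cKO, a ratio of 2.15 (1.67 to 2.81). *U2af2*, which recognises the end of introns in splicing, had 19.1 in WT and 40.6 in cKO. *Slc25a42*, a mitochondrial carrier, had 18.8 and 38.6, and *Daxx*, a chaperone of histone H3.3, 18.2 and 37.1. The cKO peak at *Daxx* was 13331 bp wide and covered 4 WT peaks. Its height may therefore belong to another of them, and the ratio may not compare the same site.

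The order of the promoters was largely kept between the lists. Of the 607 members, 461 (75.9%, 72.4 to 79.2%) had a cKO peak in the top decile of the 6801 one-way promoters of the cKO list. The share was 10.3% over all WT one-way promoters. This count required the cKO peak to be a one-way promoter peak by its own midpoint. That held at 535 members, and the rest could not be counted whatever their height. When the 6012 WT one-way promoters with a cKO peak were ranked by that peak, 484 members (79.7%) fell in the top decile, 111 in the second, 11 in the third and 1 below it. The member that fell lowest was *Chfr*, at rank 1847. The other 11 outside the first 2 deciles were *Eif3d*, *Wtap*, *Herc2*, *Hdac2*, *Csnk1g2*, *Cops4*, *Psmd8*, *Upf1*, *Rpp14*, *Wbp1l* and *Mapkbp1*, named after their values were seen.

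The cKO peaks were also wider. Their median width at members was 2238 bp (2169 to 2320), beside 1544 bp over all one-way promoters. The cKO peak was the wider one at 575 of 607 members (94.7%), and at 5744 of the 6012 one-way promoters with a cKO peak. At 43 members (7.08%, against 6.10% overall) the cKO peak covered more than 1 WT peak. The fold enrichment of such a cKO peak is that of its summit, which was not located and may lie at another WT peak than the member. The widest lay at *Ddx50*, an RNA helicase gene next to its paralog, where a WT peak of 2300 bp stood under a cKO peak of 22499 bp that took in 8 WT peaks. The cKO peaks at *Daxx* (13331 bp), *Dolpp1* (12792 bp), *Manf* (11328 bp) and *Cic* (10453 bp) each covered 3 to 5 WT peaks. Peaks of at least 5000 bp numbered 6 in WT (0.988%) and 38 in cKO (6.26%) at members. Over all one-way promoters they numbered 10 in WT (0.165%), and 155 in cKO (2.58% of those with a cKO peak).

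The promoter sequences of members held CCAAT boxes and GC boxes more often than those of other one-way promoters. Motifs were searched as exact letters on both strands in the 250 bp before the start, and sequence was not used in choosing the members. CCAAT was present at 362 of 607 members (59.6%, 55.7 to 63.5%), at 32.8% of the remaining one-way promoters (31.6 to 34.1%), and at 35.5% of 20802 autosomal protein-coding gene starts. GGGCGG was present at 82.0% of members (78.8 to 84.9%), 64.4% of the remainder (63.1 to 65.6%) and 39.6% of gene starts. The intervals did not overlap for either motif. They take promoters as units and carry no variance between libraries.

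The share with CCAAT fell along the ranking. It was 45.5% in the second decile and 22.9% in the weakest, and the share with a GC box fell from 82.0% to 56.9%. The same promoters ranked by their cKO peaks gave 59.6% in the top decile and 23.8% in the weakest for CCAAT, a ranking that shares no library with the WT one but most of its members. This ranking was added after the data were seen. 

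**Figure D3:**
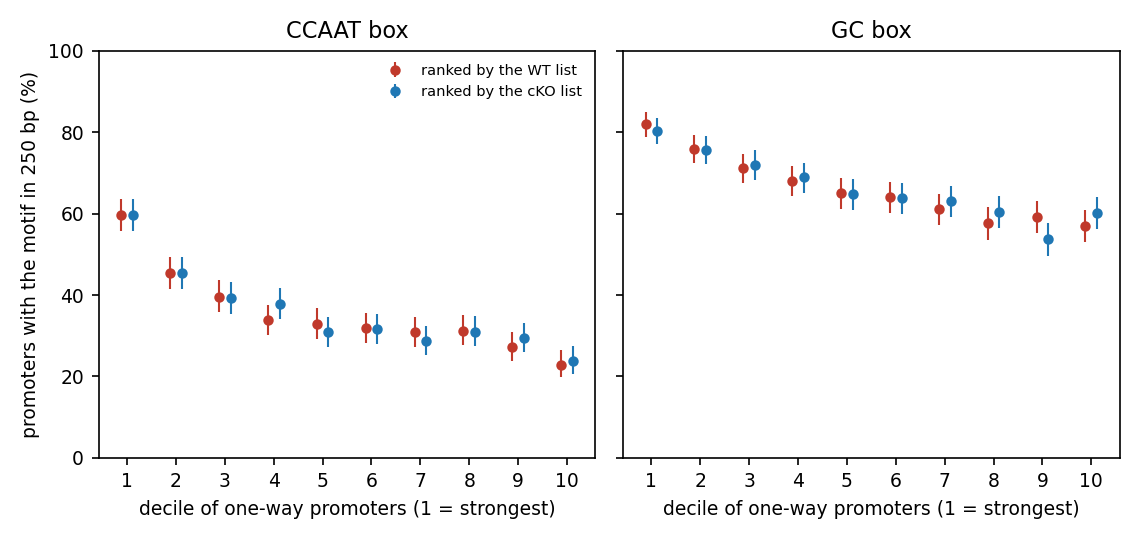
Share of one-way promoters (y axis, percent, with 95% Wilson intervals) that hold CCAAT (left) or GGGCGG (right) in the 250 bp before the start, by decile of the ranking (x axis, 1 strongest), with the WT ranking in red and the cKO ranking in blue. For CCAAT both rankings begin at 59.6% and end at 22.9% and 23.8%.

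The number of boxes went with membership. Of 3911 one-way promoters without CCAAT, 6.26% were members. The share was 10.1% of 1322 with 1 box, 22.5% of 538 with 2 and 36.6% (31.3 to 42.2%) of 295 with 3 or more. At least 2 boxes were present at 229 members (37.7%) and at 11.1% of the remainder. *Arid4a*, which encodes a chromatin-binding protein and was singled out after its values were seen, held 7 boxes. Promoters with both CCAAT and GGGCGG were members in 21.2% of cases (299 of 1409), those with CCAAT alone in 8.45%, those with GGGCGG alone in 7.65%, and those with neither in 3.51% (46 of 1309). Within the members, the median cKO to WT ratio ranged from 1.55 to 1.61 over these classes.

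GC content differed little, and the share with CCAAT was higher in members within each class of it. Median GC content of the WT peak was 59.97% at members and 60.9% over all one-way promoters, and in the 250 bp before the start it was 65.6% and 63.2%. When promoters were split into quartiles by the GC content of those 250 bp, CCAAT was present at 71.2% of members and 41.4% of the remainder in the quartile lowest in GC. The values were 71.6% and 39.8% in the second, 61.0% and 30.6% in the next, and 42.5% and 19.8% in the quartile richest in GC. GGGCGG was present at 47% of members and 31.2% of the remainder in the first quartile, 73.5% and 59.2% in the second and 89.8% and 77.6% in the next. In the quartile richest in GC it was present at 94.3% of members (89.7 to 96.8%) and 90.4% of the remainder (88.8 to 91.9%), with overlapping intervals. The CpG observed to expected ratio of the peak had a median of 0.757 at members and 0.747 over all one-way promoters. In the 250 bp before the start it was higher at members, 0.845 (0.826 to 0.866) beside 0.792 (0.784 to 0.799). The quartiles were by GC content only and not by this ratio.

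The boxes of members lay slightly farther from the start than those of other promoters. The 759 boxes in members had a median position of 110 bp before the start (104 to 117), and the 2650 in the remainder of 97 bp (94 to 101). These intervals take boxes as units and are too narrow, since boxes of the same promoter are not independent. At least 2 boxes were present at 37.7% of members and 11.1% of the remainder, and the positions were not compared at an equal number of boxes. The share between 120 and 40 bp before the start was 44.7% and 46.6%. The letters CCAAT, as opposed to ATTGG, stood on the strand of the gene in 51.5% of members' boxes and 49.7% of the others. From 251 to 500 bp before the start, CCAAT was present at 34.1% of members (30.4 to 38.0%) and 25.1% of the remainder (24.0 to 26.3%). The difference between members and remainder was thus larger near the start than in this next stretch, which was examined after the data were seen.

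**Figure D4:**
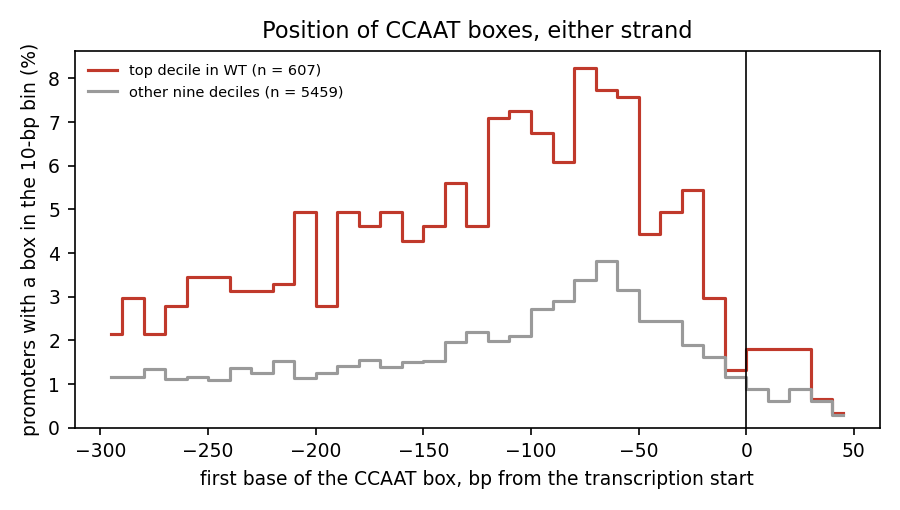
Share of promoters (y axis, percent) with a CCAAT box, on either strand, whose first base in the direction of the gene lies in each 10-bp bin (x axis, bp from the start), for the 607 members in red and the remaining 5459 one-way promoters in grey. The highest bins are 8.24% for members, 80 bp before the start, and 3.81% for the remainder, 70 bp before it.

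Other motifs differed less between members and the remainder. The NRF1 core GCGCATGC was found at 4.12% of members and 5.51% of the remainder, the ETS core CCGGAAG at 13.3% and 14.6%, and the E-box CACGTG at 8.24% and 9.53%. Over all gene starts these shares were 2.77%, 8.21% and 6.6%. TATAAA was found at 3.46% of members, 4.32% of the remainder and 11.6% of gene starts. The cAMP response element TGACGTCA was found at 2.31% and 2.97% (gene starts 1.93%), and its shorter form TGACGT, which also matches inside the full site, at 13.5% (11 to 16.5%) and 10% (9.27 to 10.9%), with 7.13% of gene starts. The intervals for this shorter form missed each other only narrowly, among several motifs searched, and the full site went the other way. The YY1 core AAGATGGC was found at 3.79% of members (2.54 to 5.62%), 2.31% of the remainder (1.94 to 2.74%) and 1.45% of gene starts. The core AACNGTT of A-MYB, a master regulator of pachytene transcription, was found at 3.46% and 2.45% (gene starts 3.21%). GTTGCC, a part of the RFX site, was found at 12.9% and 11.6% (gene starts 9.87%). A match is a run of letters and not a measured binding site.

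An annotated noncoding start on the opposite strand, which the choice of one-way promoters did not consider, lay within 1000 bp of 137 member starts (22.6%, 19.4 to 26.1%). Over all one-way promoters the share was 15.2% (14.3 to 16.1%). Some members are therefore one-way only for protein-coding genes, among them *Setd5*, *Crem*, *Calr* and *Ccna1*.

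Gene groups differed in how many of their one-way promoters were members, against 10% over all one-way promoters. The lists were drawn up with earlier results of these data known, and their shares carry wide Wilson intervals. The main lists exclude the cell-type markers and 2 lists added after the values were seen. Among the main lists, the highest share was in the list of spermatogenic transcription factors, with 8 of 15 promoters (53.3%, 30.1 to 75.2%). This list was not limited to factors particular to germ cells, and *Sp1* is in it. Besides *Sp1*, it held *Rfx3* (20.1 in WT and 31.3 in cKO) and *Rfx2* (16.7 and 33.9), RFX factors of ciliary and spermatid genes, *Crem* (19.7 and 26.8), the cAMP-responsive activator of spermatid genes, and *Tbpl1* (19.1 and 23.7), a TBP relative that spermatids need. *Sox30* (18.6 and 31.3) encodes a factor of the round spermatid programme, *Nfyc* (17.6 and 26.5) encodes a subunit of NF-Y itself, and *Creb1* (17.3 and 22.6) is a relative of *Crem*. CCAAT was present at 4 of the 8.

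Genes of protein synthesis were unevenly placed. Among translation factors 11 of 38 promoters (28.9%, 17 to 44.8%) were members, led by *Eif5a*, *Pabpc1* (22.9 in WT and 37.8 in cKO), which binds poly(A) tails, *Eif1* (21.9 and 33.2), *Eif4g2* (21.9 and 34.9) and the release factor *Etf1* (20.6 and 38.5). In contrast, 2 of 50 cytosolic ribosomal protein promoters (4%, 1.1 to 13.5%) were members, *Rpl13a* (18.4 and 26.0) and *Rplp0* (17.8 and 22.7). Of mitochondrial ribosomal proteins 1 of 33 was a member, *Mrpl41*, and of aminoacyl tRNA synthetases 0 of 22 (upper bound 14.9%). The median WT fold enrichment of all one-way promoters in these groups was 10.6 for translation factors, 9.10 for cytosolic and 6.75 for mitochondrial ribosomal proteins, and 9.29 for the synthetases.

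Chaperones were also frequent. Of 38 promoters of heat shock proteins and chaperonins 9 (23.7%, 13.0 to 39.2%) were members. *Hspa8*, the constitutive cytosolic HSP70, had 22.3 in WT and 41.9 in cKO, and *Hspa5*, the HSP70 of the endoplasmic reticulum, had 20.8 and 40.6. *Hsp90aa1* had 20.3 and 30.9, and *Dnajc3*, a co-chaperone of *Hspa5*, 20.3 and 32.1. *Hspa2*, the testis HSP70 that pachytene cells are known for, had no peak with its midpoint in the promoter window in either list.

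Of 79 promoters of chromatin regulators, 15 (19%, 11.9 to 29%) were members. After *Smarca5* and *Setd5* came *Arid4a* (21.4 in WT and 35.0 in cKO), the histone acetyltransferase *Kat6b* (21.4 and 36.2) and the deacetylase *Hdac4* (19.9 and 36.7), and the group also held *Hdac2* and, at the limit, the H3K27 methyltransferase *Ezh2* (15.8 and 28.5). Of 15 promoters of SWI/SNF subunits, the family of complexes to which ARID1A belongs, 1 was a member, *Actl6a* (17.6 and 30.9). Splicing factors and RNA helicases gave 13 of 78 (16.7%, 10 to 26.5%), among them *Ddx50* (23.8 and 35.0) and *U2af2*. Cell-cycle regulators gave 9 of 60 (15%, 8.1 to 26.1%), among them *Ccna1*, the germ-cell cyclin needed at the end of meiotic prophase, with 17.6 in WT and 28.1 in cKO.

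**Figure D5:**
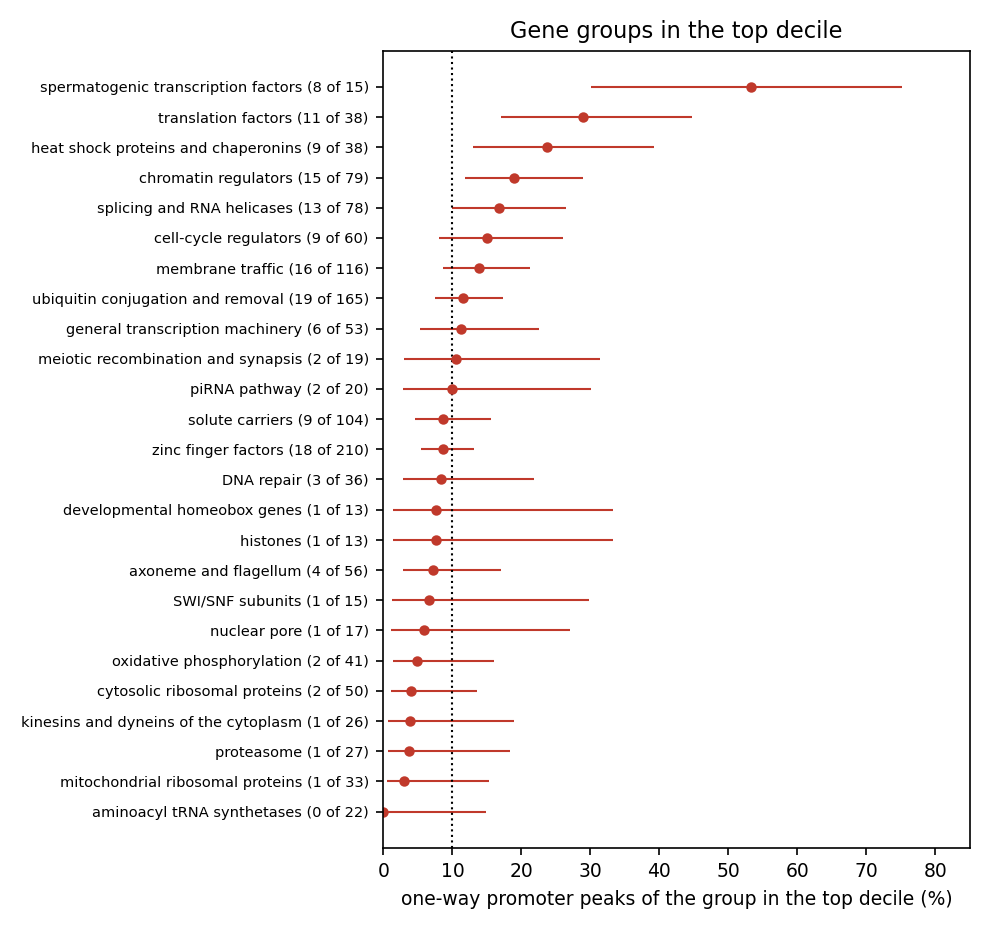
Share of the one-way promoter peaks of each main gene group with at least 10 such peaks that belong to the top decile in WT (x axis, percent, points with 95% Wilson intervals), with counts in brackets and the share over all one-way promoters, 10%, as a dotted line. Intervals of 4 groups, spermatogenic transcription factors, translation factors, heat shock proteins and chaperonins, and chromatin regulators, lie clear of the line, and that of splicing factors begins at it.

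Meiotic and germline gene groups were near the share of all one-way promoters. Of 19 promoters of meiotic recombination and synapsis genes 2 (10.5%, 2.94 to 31.4%) were members. *Sycp2*, which builds the axis of the synaptonemal complex, had 19.5 in WT and 33.7 in cKO, and *Meiob*, a single-strand DNA binding protein of recombination, had 15.8 and 25.2. Of 20 promoters of the piRNA pathway 2 (10%, 2.79 to 30.1%) were members, *Piwil2* and *Tdrkh* (17.8 and 27.3), a tudor protein of piRNA processing. Axoneme and flagellum genes gave 4 of 56 (7.14%, 2.81 to 17%), and DNA repair genes 3 of 36 (8.33%).

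The remaining main lists had shares between 3.70% and 13.8%, apart from the olfactory receptors with 0 of 1. Membrane traffic gave 16 of 116 (13.8%), ubiquitin conjugation and removal 19 of 165 (11.5%), and general transcription machinery 6 of 53 (11.3%). Zinc finger factors gave 18 of 210 (8.57%) and solute carriers 9 of 104 (8.65%). Oxidative phosphorylation gave 2 of 41 (4.88%), *Uqcrq* and *Atp5b*, and nuclear pore proteins 1 of 17 (5.88%). Histones gave 1 of 13, *H2afv*, and developmental homeobox genes 1 of 13, *Irx5* (21.8 in WT and 31.9 in cKO). The proteasome gave 1 of 27 (3.70%), *Psmd8*, and cytoplasmic kinesins and dyneins 1 of 26 (3.85%), *Dynll1*.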

How the data were processed

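The authors prepared ATAC-seq libraries with the Omni-ATAC protocol from 100000 cells each, trimmed reads with Trim Galore, aligned them to mm10 with Bowtie2, removed duplicates and mitochondrial reads, and called peaks per library with MACS2 (q 0.05, no local background). Blacklisted regions were removed and the peaks of replicates intersected, which left 1 deposited list per genotype. Fold enrichment was deposited as a linear ratio, the summit pileup over a constant background, and the deposited −log10 q scores that ratio. The −log10 p and the column of other unit, the summit offset deposited by the authors, were not used. Depth is known only as the background per base of the library whose peaks the list carries.

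Rows were collapsed by peak name, and starts were taken from all protein-coding transcripts of the GENCODE vM21 annotation. Where several starts lay in the window, at least 1 had to be one-way. A cKO peak was matched by an overlap of at least 1 bp, taking the one with the highest −log10 q. Summit pileups were recovered from the fold enrichment grid to give exact binomial counting intervals of each ratio. Shares have Wilson 95% intervals and medians order-statistic 95% intervals. No test was run, because each genotype is 1 list. Uniqueness was the share of 50-base stretches, sampled every 25 bp, found once in the reference. Sequence came from the RefSeq GRCm38 assembly. Named genes were the 25 strongest members, the 6 highest and 6 lowest ratios, 3 on each side of the limit and up to 5 members of each group with the highest scores, and others are named for a count or a feature, after their values were seen. Some genes that this rule names are not reported here. Members and lists were chosen with earlier results of these data known. Scripts used Python 3.11.15, pandas 2.3.3, numpy 2.4.6, SciPy 1.17.1, numba 0.67.0 and matplotlib 3.10.9, and were checked on simulated data. Alternatives were another start, opposite-strand distance or biotype, ranking value, share taken, row number, uniqueness, overlap, peak match, scaling and window.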

Additional observations from a re-analysis of the deposited data

How the results depend on the processing

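Starts taken from gene records in place of transcripts gave 3853 one-way promoters and 385 members, of which 378 were among the 607, all 385 with a cKO peak. There 70.7% were in the top cKO decile, median GC was 59.3%, and CCAAT was present at 65.97%, beside 37.2% of the remainder. The strongest twentieth gave 303 members with a width of 1806 bp, and the top quintile 1213 with 1577 bp and CCAAT at 52.5%. All of these had a cKO peak (303 and 1213). The ratio divided by the overall median was 1.01. GC from 250 bp before to 50 bp after the start was 66.3%, CCAAT within 500 bp was 70.2%, and CCAAT from 251 to 500 bp, added later, was 34.1%. The cause of the shifts in CCAAT and in the cKO decile with gene records was not tested. The other 65 recomputed main values moved by less than their interval, or by less than 1.5 times for counts. Ranking by fold enrichment gave the same 607 peaks, since both values rise with the summit pileup.

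No paired analysis was possible because each genotype is 1 list, and for the same reason leaving out a replicate was not possible. Heights rest on 1 library per genotype, so differences between animals are unknown. A ratio that differs from the overall median by less than about 26.2% was not detectable at this depth for a typical member.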

Other observations

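Among members, 7 were genes of protein folding and stress in the endoplasmic reticulum, in a list drawn up after the values were seen and so without weight as evidence. They were 7 of the 12 one-way promoters of that list (58.3%), and all 7 held CCAAT. *Pdia4*, a disulfide isomerase, had a fold enrichment of 23.8 in WT and 32.7 in cKO, the lectin chaperone *Calr* 21.6 and 33.7, its partner *Canx* 19.1 and 26.3, and the secreted stress factor *Manf* 21 and 29.9. The median cKO to WT ratio of the 7 was 1.43, with a range of 1.19 (*Dnajb9*) to 1.95 (*Hspa5*).

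In a second list of that kind, genes of cholesterol synthesis and uptake, 5 of 18 one-way promoters (27.8%) were members, and all 5 held CCAAT. Among them were *Hmgcs1*, *Lss* (23.5 in WT and 31.9 in cKO), *Sqle* (19.7 and 28.5) and *Idi1* (15.8 and 24.1), each an enzyme of the pathway. The lowest ratio was 1.36, at *Lss*.

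By chromosome, members made up 6.64% of one-way promoters on chromosome 3 and 14.5% on chromosome 19, with the other autosomes between these values.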
